A study of Rattus norvegicus with 18 samples.

Results

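Kit, Cxcr4 and Alpl are 3 genes whose products sit at the surface of primordial germ cells (PGC), from which sperm and eggs descend. They were chosen by gene symbol, and each symbol had 1 line among the 32545 lines of the expression table (ENSRNOG00000002227, ENSRNOG00000003866 and ENSRNOG00000013954). RNA sequencing covered 18 libraries of rat embryos of the Wistar strain Crlj:WI, all of the genotype Prdm14-Venus, a fluorescent reporter of the germ line regulator Prdm14. Epiblast, the pluripotent layer from which the germ line arises, gave 6 libraries, with 2 male and 1 female library on each of embryonic day (E) 7.25 and E7.75. PGC gave 12 libraries: 2 per day at E9.5 and daily up to E12.5, with no sex in the labels, and 4 at E15.5, of which 2 were male and 2 female. Every group carried the reporter, so no library came from an embryo without it. Values were RPKM, read numbers scaled by gene length and by the mapped reads of the library, which allow levels to be compared between genes.

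Kit is the receptor tyrosine kinase for Kit ligand (Kitlg), which surrounding somatic cells present to germ cells, and its signal is known to sustain their survival, division and movement. Cxcr4 is the G protein-coupled receptor for the chemokine Cxcl12, which guides migrating PGC to the genital ridges. Alpl encodes tissue-nonspecific alkaline phosphatase, an enzyme held on the outer membrane by a glycosylphosphatidylinositol (GPI) anchor, and staining for its activity is a long-standing way to see mouse PGC.

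The sequences just before the annotated starts of the 3 genes are shown because the genes were compared for moving together. They come from RefSeq on build GRCr8, which is not the build of the expression table, run 5′ to 3′ on the coding strand and end at the base before the annotated start. Kit lies at chr14:32978813-32979062, Cxcr4 at chr13:42634289-42634538 and Alpl at chr5:155289786-155290035, all on the minus strand. Capitals mark matches on either strand to the GC box GGGCGG, the TATA box TATAAA and the TFAP2 motif GCCNNNGGC.
Kit: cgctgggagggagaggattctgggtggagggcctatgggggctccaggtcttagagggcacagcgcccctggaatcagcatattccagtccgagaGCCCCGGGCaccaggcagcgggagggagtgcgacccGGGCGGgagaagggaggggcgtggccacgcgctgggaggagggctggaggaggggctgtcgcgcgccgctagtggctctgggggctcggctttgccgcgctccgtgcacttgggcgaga
Cxcr4: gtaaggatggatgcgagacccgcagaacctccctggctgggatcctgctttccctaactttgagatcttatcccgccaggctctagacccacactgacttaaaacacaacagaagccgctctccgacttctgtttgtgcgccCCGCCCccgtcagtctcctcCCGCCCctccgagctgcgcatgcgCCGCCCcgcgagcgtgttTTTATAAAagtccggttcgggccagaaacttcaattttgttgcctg
Alpl: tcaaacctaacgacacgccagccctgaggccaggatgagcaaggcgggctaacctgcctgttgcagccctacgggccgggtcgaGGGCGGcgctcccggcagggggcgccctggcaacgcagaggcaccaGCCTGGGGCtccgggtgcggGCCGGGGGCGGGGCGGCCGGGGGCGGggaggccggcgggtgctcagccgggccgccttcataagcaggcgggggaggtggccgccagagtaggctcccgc
All 3 windows were rich in CG dinucleotides, with 20 in Kit, 18 in Cxcr4 and 25 in Alpl, against a median of 5 over 33469 promoters of 250 bases. These numbers were higher than in 83.3%, 79.9% and 90.3% of those promoters. The GC box matched 1 time in Kit, 3 times in Cxcr4 and 4 times in Alpl, and 30.5% of all promoters held it. The TATA box matched in Cxcr4 alone, by 2 overlapping matches on opposite strands, and was found in 12.9% of promoters. The TFAP2 motif matched 1 time in Kit and 3 times in Alpl, where some of these matches overlapped GC boxes, and was found in 12.6% of promoters. The motif GGTCTCTAA, given for PRDM14, matched in none of the 3 windows and in 0.20% of promoters, and the E-box CANNTG matched 1 time, in Kit, and in 65.5% of promoters. A match describes letters in these windows only.

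Relative depth was estimated from the steps between low values, with the female E7.75 library as 100%. It was 20.7% to 22.9% for the E10.5 and E11.5 samples, 4 in all, and 82.6% to 120.9% for the other 14. Of the tested genes 14.4% to 21.6% were listed at 0 in those 4, against 8.29% to 15.4% in the others. The germ cell list (Prdm1, Prdm14, Tfap2c, Nanos3, Dppa3, Dnd1, Dazl and Ddx4) summed to 12.8 to 38.5 RPKM in epiblast, 358 to 518 RPKM at E9.5 and 612 to 1808 RPKM later. From E7.75 epiblast to E9.5, 6 of these 8 were called higher and 1 lower, beside 16.3% and 11.3% of all tested genes. Epiblast libraries held the epiblast genes Dnmt3b, Tdgf1 and Utf1, of which Utf1 was also high in PGC, whereas Fgf5, another epiblast marker, was listed at 0 in all 18 libraries. The E9.5 libraries had the highest sums of the mesodermal lists. The 6 genes of an allantois and extraembryonic mesoderm list summed to 496 and 521 RPKM there, and 7 mesenchyme genes to 166 and 172 RPKM. The former list was above epiblast (4.05 to 17.5 RPKM) in later PGC too. It summed to 136 to 237 RPKM from E10.5 to E12.5 and to 30.7 to 45.9 RPKM at E15.5. Endothelial genes summed to 165 and 39.0 RPKM in E9.5 replicates 1 and 2. The blood list summed to 2.82 to 3.19 RPKM at E9.5, with Gata1, Hbb, Ptprc and Tyrobp at 0. A definitive endoderm and gut list summed to 213 and 245 RPKM at E9.5, 546 to 708 RPKM in epiblast and 8.19 to 78.1 RPKM in later PGC. A gonadal somatic cell list summed to 33.7 and 64.9 RPKM at E9.5, 1.63 to 46.8 RPKM in epiblast and 0.435 to 17.1 RPKM in later PGC. Results that use E9.5 are therefore given beside these values, and fewer cells of a type cannot be told apart from less RNA per cell in such bulk libraries. The labels do not say whether replicates came from separate embryos, so p-values measure the spread between libraries, which may be technical.

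Kit was low in epiblast and high in every PGC library. At E7.25 it was 5.73 and 4.89 RPKM in the male libraries and 0.677 RPKM in the female one. At E7.75 it was 10.5 and 8.23 RPKM in the males and 5.14 RPKM in the female. The PGC libraries held 67.9 and 85.3 RPKM at E9.5, 45.4 and 64.8 RPKM at E10.5, 105 and 109 RPKM at E11.5, and 98.5 and 88.9 RPKM at E12.5. Germ cells of E15.5 held 49.4 and 64.4 RPKM in males and 101 and 62.5 RPKM in females. The lowest PGC library, of E10.5, thus lay above the highest epiblast library, of E7.75. In order of group means, Kit was lowest at E7.25 (3.77 ± 2.71 RPKM, SD, n = 3), followed by E7.75 (7.95 ± 2.68, n = 3), E10.5 (55.1 ± 13.7, n = 2), E15.5 males (56.9 ± 10.6, n = 2), E9.5 (76.6 ± 12.3, n = 2), E15.5 females (81.5 ± 26.9, n = 2), E12.5 (93.7 ± 6.82, n = 2) and E11.5 (107 ± 2.45, n = 2). Neighbours in this order overlapped in 4 of 7 cases, all but E7.75 with E10.5, E15.5 males with E9.5, and E12.5 with E11.5.

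Cxcr4 followed the same division at lower levels. It was 3.42 and 0.514 RPKM in the E7.25 males, was listed at 0 in the E7.25 female, and was 4.63, 1.94 and 1.07 RPKM in the 2 males and the female of E7.75. In PGC it was 33.0 and 29.7 RPKM at E9.5, 27.0 and 22.8 RPKM at E10.5, 17.7 and 16.4 RPKM at E11.5, and 42.9 and 27.2 RPKM at E12.5. At E15.5 it was 8.17 and 12.5 RPKM in males and 18.7 and 24.8 RPKM in females. The E15.5 male libraries were the lowest of all PGC libraries, and even they lay above every epiblast library. By group mean the order was E7.25 (1.31 ± 1.85 RPKM, SD, n = 3), E7.75 (2.55 ± 1.86, n = 3), E15.5 males (10.4 ± 3.09, n = 2), E11.5 (17.1 ± 0.918, n = 2), E15.5 females (21.8 ± 4.31, n = 2), E10.5 (24.9 ± 2.95, n = 2), E9.5 (31.3 ± 2.37, n = 2) and E12.5 (35.0 ± 11.1, n = 2). Neighbours overlapped in 3 of 7 cases, namely the 2 epiblast days, E15.5 females with E10.5, and E9.5 with E12.5.

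Alpl had a different course, since its E9.5 level was that of epiblast. It was 17.6, 19.9 and 11.4 RPKM at E7.25 and 23.0, 32.5 and 25.5 RPKM at E7.75, the female library last on each day. At E9.5 it was 25.0 and 31.5 RPKM, inside the range of E7.75. All later libraries were far above, with 135 and 161 RPKM at E10.5, 162 and 128 RPKM at E11.5, 174 and 170.2 RPKM at E12.5, 179 and 191 RPKM in E15.5 males, and 193 and 154 RPKM in E15.5 females. The lowest library from E10.5 on was thus one of E11.5, and it exceeded both E9.5 libraries. The order of group means was E7.25 (16.3 ± 4.40 RPKM, SD, n = 3), E7.75 (27.0 ± 4.90, n = 3), E9.5 (28.3 ± 4.60, n = 2), E11.5 (145 ± 24.1, n = 2), E10.5 (148 ± 18.2, n = 2), E12.5 (172 ± 2.76, n = 2), E15.5 females (173 ± 27.6, n = 2) and E15.5 males (185 ± 8.54, n = 2). Neighbours overlapped in 4 of 7 cases; E7.25 with E7.75, E9.5 with E11.5 and E10.5 with E12.5 did not.

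**Figure D1:**
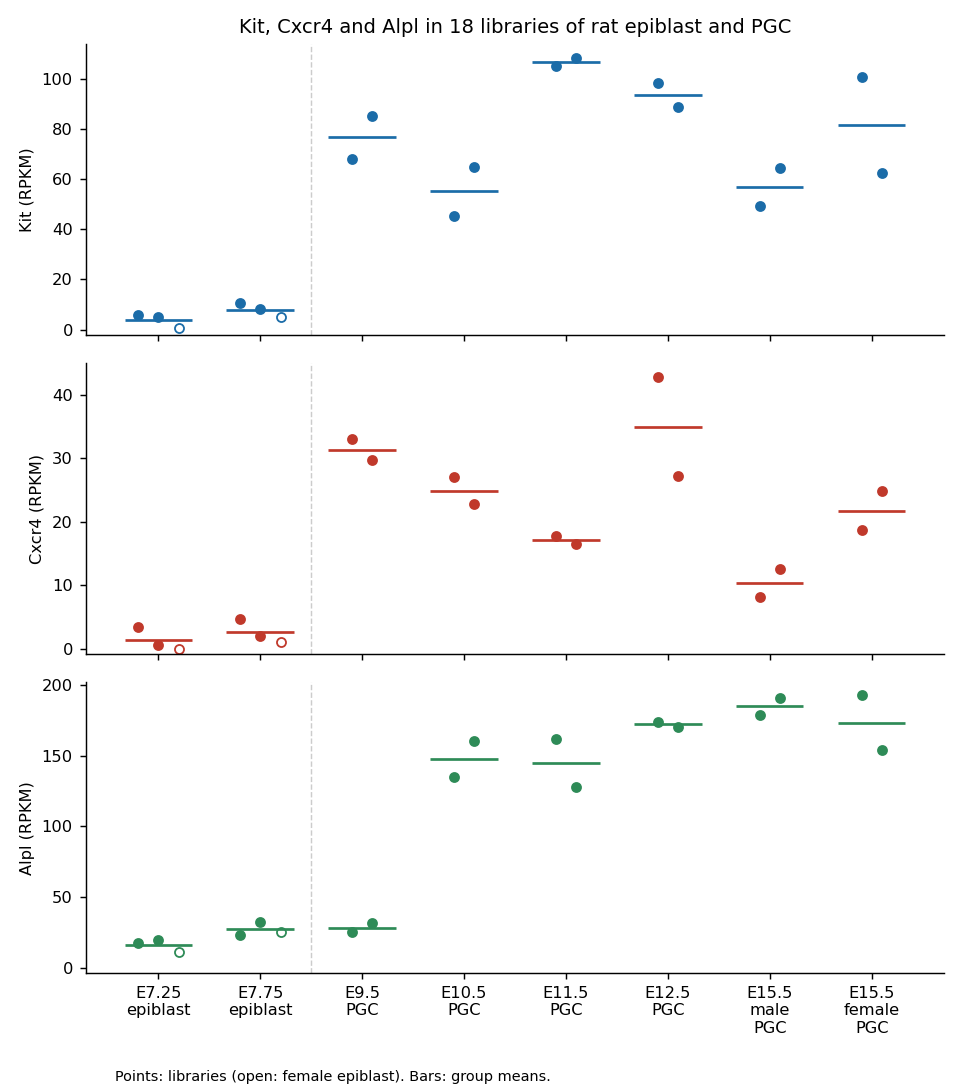
RPKM of Kit, Cxcr4 and Alpl on linear axes in 18 libraries by group, with 1 point per library (open points are female epiblast) and a bar at each group mean. Kit and Cxcr4 are high from E9.5 on, with E9.5 means of 76.6 and 31.3 RPKM, whereas Alpl is at 28.3 RPKM at E9.5 and at 148 RPKM at E10.5.

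Between all PGC and all epiblast, Kit, Cxcr4 and Alpl were all higher in PGC. Mean Kit was 78.4 ± 22.0 RPKM in PGC and 5.86 ± 3.33 RPKM in epiblast (SD, n = 12 and 6), a 13.4-fold ratio. Cxcr4 was 23.4 ± 9.50 against 1.93 ± 1.79 RPKM, a ratio of 12.1, and Alpl was 142 ± 56.5 against 21.7 ± 7.18 RPKM, a ratio of 6.55. On the log2(RPKM + 1) scale, which understates the change of low genes, the differences of group means were 3.69 ± 0.25 (SE) for Kit, 3.19 ± 0.29 for Cxcr4 and 2.51 ± 0.12 for Alpl. The limma adjusted p-values were 2.27e-08, 3.40e-07 and 4.69e-10. Of all 14865 tested genes 32.1% were higher and 26.4% lower in this comparison, so being called is common here. Kit and Cxcr4 did not overlap between PGC and epiblast, while Alpl did, through its E9.5 libraries. How many of all tested genes did not overlap here was not counted. Without the 2 libraries of E9.5, an alternative chosen after seeing the data, the differences were 3.69, 3.09 and 2.92, all past the threshold.

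The step from E7.75 epiblast to E9.5 PGC, the youngest germ cells sampled, separated the 2 receptors from Alpl. Kit rose 9.64-fold, by 3.15 ± 0.46 on the log2 scale (adjusted p = 0.000189, limma), and Cxcr4 rose 12.3-fold, by 3.31 ± 0.52 (adjusted p = 0.000325). Alpl differed by 0.07 (95% interval -0.39 to 0.53, adjusted p = 0.875). Called were thus 2 of the 3 genes, both higher, where 16.3% of tested genes were higher and 11.3% lower. In E9.5 replicates 1 and 2 the endothelial gene Kdr was at 55.2 and 25.3 RPKM, and Tal1 was at 23.4 and 2.82 RPKM. All 5 genes of a list for mast cells, a lineage with high Kit, were listed at 0 in both E9.5 libraries. This list summed to at most 1.87 RPKM in any library and no gene of it passed the filter, so the 0 is not particular to E9.5. The part of the mesodermal and endothelial RNA in the E9.5 values was not tested.

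From E9.5 to E10.5 the pattern was the opposite. Alpl rose 5.22-fold, by 2.35 ± 0.23 on the log2 scale (adjusted p = 1.36e-05, limma), and it was the 1 gene called of the 3, where 11.5% of tested genes were higher and 18.4% lower. Kit differed by -0.48 (95% interval -1.57 to 0.61, adjusted p = 0.525) and Cxcr4 by -0.32 (-1.55 to 0.90, adjusted p = 0.741). Neither gene overlapped between the days, but the share of all tested genes without overlap in groups this small was not counted. The Alpl call ended when only the 4 libraries compared were fitted (adjusted p = 0.0609), a setting in which 0 genes passed. The median over all tested genes was -0.16 here, so the rise of Alpl relative to it was larger than the value above. Mesodermal RNA moved with this step too: 5 of 6 allantois and extraembryonic mesoderm genes and 4 of 7 mesenchyme genes were lower at E10.5, and the former summed to 232 and 237 RPKM. Its part in the Alpl rise was not tested.

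Ratios within a library do not depend on how the libraries were scaled. Kit was 2.71 and 2.70 times Alpl at E9.5, and 0.0593 to 0.849 times Alpl in the other 16 libraries. Cxcr4 was 1.32 and 0.940 times Alpl at E9.5, and at most 0.246 times Alpl elsewhere. E9.5 was therefore the one age at which Kit exceeded Alpl in RPKM. Ranked among all tested genes, Alpl lay above 68.9% and 72.5% of them at E9.5, above 58.0% to 75.5% in epiblast and above 91.4% to 96.0% in later PGC. Kit lay above 80.3% to 90.8% in later PGC, against 22.0% to 55.5% in epiblast, and its E9.5 ranks fell inside the later range. Cxcr4 had the widest spread in rank, from 50.4% to 78.1% after E9.5 and from 0% to 42.8% in epiblast.

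**Figure D2:**
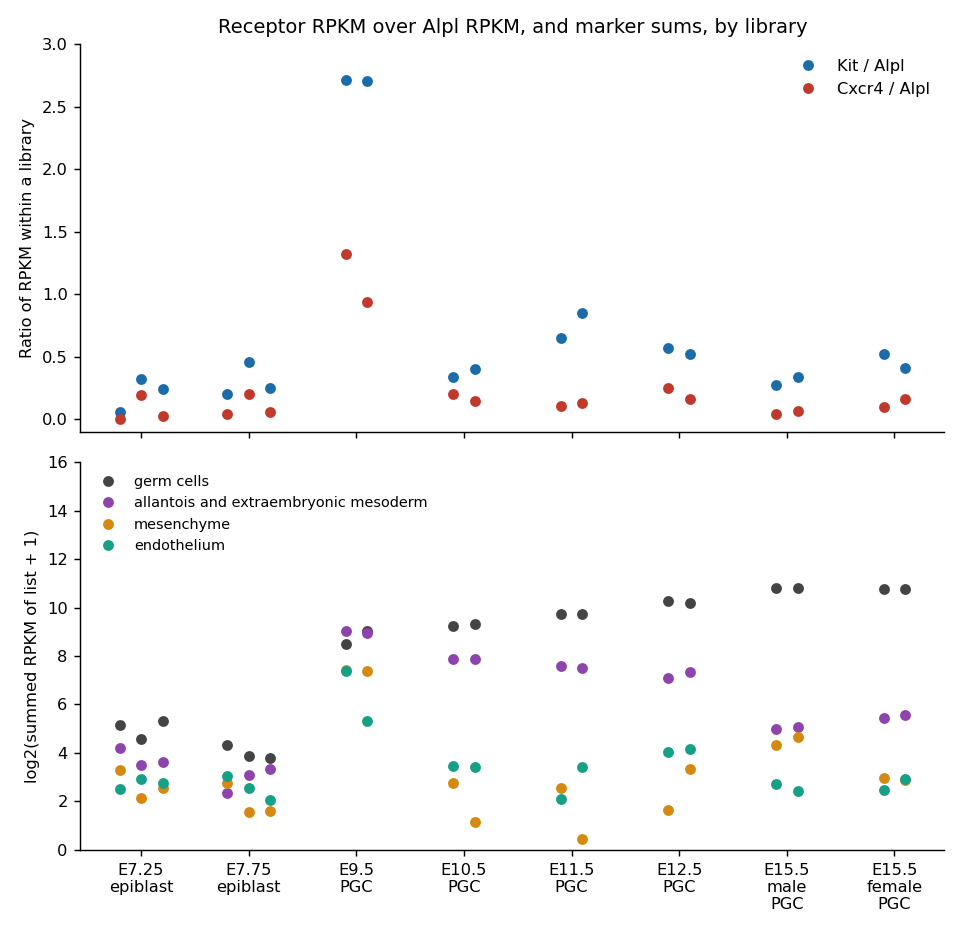
Upper panel, the ratio of Kit or Cxcr4 RPKM to Alpl RPKM in each library; lower panel, log2 of the summed RPKM of 4 marker lists plus 1, with 1 point per library in each group. The E9.5 libraries have the highest ratios, 2.71 and 2.70 for Kit, and the highest sums of the mesodermal lists, up to 521 RPKM.

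The next steps brought no call for the 3 genes. From E10.5 to E11.5 Kit differed by 0.96 (95% interval -0.12 to 2.05, adjusted p = 0.292), Cxcr4 by -0.51 (adjusted p = 0.680) and Alpl by -0.03 (adjusted p = 1), in limma. In that step 3.59% of tested genes were higher and 3.61% lower. From E11.5 to E12.5 Kit differed by -0.19 (adjusted p = 0.923), Cxcr4 by 0.96 (adjusted p = 0.375) and Alpl by 0.26 (adjusted p = 0.613), where 4.12% were higher and 3.09% lower. Neither Kit nor Cxcr4 overlapped between neighbouring days in these steps, but their differences were not beyond the spread the fit used. The share of all tested genes without overlap in such groups of 2 was not counted. Between E9.5 and E12.5 Alpl rose 6.08-fold (2.57 ± 0.23, adjusted p = 4.34e-06), Kit differed by 0.29 (adjusted p = 0.737) and Cxcr4 by 0.12 (adjusted p = 0.926). In that span 11.3% of tested genes were higher and 11.9% lower.

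At E15.5 none of the 3 genes had a called difference from E12.5, and Cxcr4 had its lowest PGC values in males. Against E12.5, Cxcr4 was 3.38-fold lower in E15.5 males, a difference of -1.66 ± 0.57 (adjusted p = 0.0970, limma), and 1.61-fold lower in females (-0.64, 95% interval -1.86 to 0.59, adjusted p = 0.499). Kit differed by -0.72 in males (adjusted p = 0.474) and by -0.24 in females (adjusted p = 0.825), and Alpl by 0.10 and 0.00 (adjusted p = 0.895 and 1). None of the 3 was called, where 3.58% of tested genes were higher and 5.15% lower in males, and 8.60% were higher and 9.84% lower in females. Both comparisons use the same E12.5 libraries. The Cxcr4 difference in males passed with a pseudocount of 5 (-1.37, adjusted p = 0.00784), with array weights, which count variable libraries less (adjusted p = 0.0383), and without E7.25 male replicate 1 (adjusted p = 0.0269). Between the sexes at E15.5, Cxcr4 was higher in both females than in both males (a difference of 1.02, 95% interval -0.21 to 2.24, adjusted p = 0.322), Kit differed by 0.48 (adjusted p = 0.655) and Alpl by -0.10 (adjusted p = 0.882). Of all tested genes 4.33% were higher and 5.35% lower in female than in male PGC. How many of them did not overlap between these sexes was not counted.

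**Figure D3:**
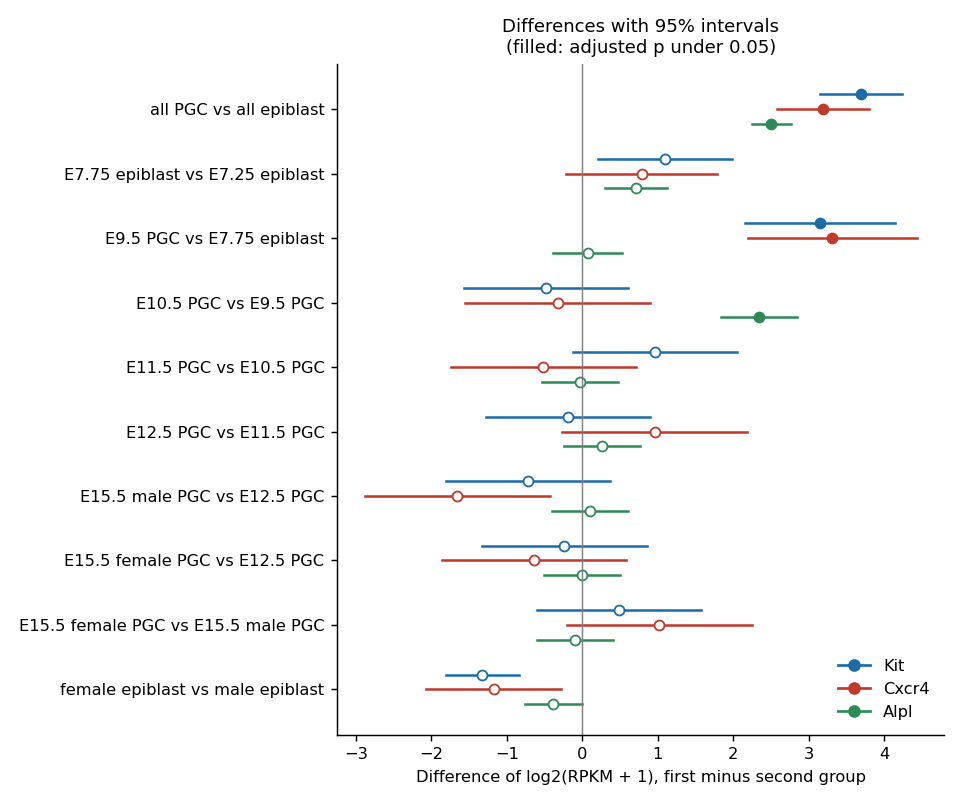
Differences of log2(RPKM + 1) for Kit, Cxcr4 and Alpl in 10 comparisons, with 95% intervals from the limma fit; filled points have an adjusted p under 0.05. Kit and Cxcr4 are filled at the step to E9.5 (3.15 and 3.31), Alpl at the step to E10.5 (2.35), and all 3 between PGC and epiblast.

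The intervals of Kit and Cxcr4 were wide because the fit shares 1 spread over all libraries of a gene. On the log2 scale the SD within groups of Kit was 0.85 in epiblast and 0.29 in PGC, that of Cxcr4 was 0.94 and 0.28, and that of Alpl was 0.33 and 0.18. A test of any difference among the 6 PGC groups was passed by Alpl (F = 38.3, adjusted p = 4.23e-06) and not by Kit (F = 1.144, adjusted p = 0.445) or Cxcr4 (F = 2.28, adjusted p = 0.150), where 55.6% of tested genes passed. With the PGC libraries fitted alone, Cxcr4 passed (F = 9.83, adjusted p = 0.0108) and Kit did not. Cxcr4 also passed with a pseudocount of 5 (F = 6.06, adjusted p = 0.00930) and without E7.25 male replicate 1 (F = 4.28, adjusted p = 0.0328).

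In epiblast, the 3 genes were higher on average at E7.75 than at E7.25, and no difference passed. Alpl was 1.65-fold higher without overlap (0.71, 95% interval 0.30 to 1.13, adjusted p = 0.220, limma), Kit 2.11-fold (1.10, adjusted p = 0.412) and Cxcr4 1.94-fold (0.78, adjusted p = 0.723). Only 0.101% of tested genes were higher and 0.168% lower. How many of them did not overlap in such groups of 3 was not counted. In epiblast of each day the female library had the lowest Kit and the lowest Cxcr4. Kit was 2.91 ± 3.16 RPKM in the 2 females and 7.33 ± 2.53 RPKM in the 4 males, a difference of -1.33 ± 0.22 on the log2 scale (adjusted p = 0.0949). Cxcr4 differed by -1.17 (adjusted p = 0.910) and Alpl by -0.38 (adjusted p = 1), and 0.0135% of tested genes were higher and 0.0471% lower in females. The Kit difference passed with a pseudocount of 0.1 (-1.82, adjusted p = 0.0118), with no filter on low values (adjusted p = 0.0174), with array weights (adjusted p = 0.0336), and without either E15.5 female library (adjusted p = 0.0391 without replicate 1 and 0.0387 without replicate 2). Each sex and day of epiblast had 1 or 2 libraries, and the E7.25 female one held 0.677 RPKM. Since each day had 1 female library, the SE and p-values between the sexes hold no spread among female epiblast libraries.

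The sex difference of Kit in E15.5 PGC was then set against that in epiblast. With 1 female epiblast library per day, the SE and p-values hold no spread among female epiblast libraries. The difference between these sex differences was 1.81 ± 0.34 on the log2 scale (adjusted p = 0.0157, limma interaction), so Kit was the 1 gene called of the 3, where 1.22% of tested genes were called in this direction and 1.70% in the other. Cxcr4 had 2.19 ± 0.62 (adjusted p = 0.0885) and Alpl 0.28 ± 0.26 (adjusted p = 0.680). The Kit call ended without E7.25 female replicate 1 (1.23, adjusted p = 0.193), without E15.5 male replicate 1 (1.62, adjusted p = 0.0786) and without E15.5 female replicate 1 (1.47, adjusted p = 0.0540). It also ended with a pseudocount of 5 (1.136, adjusted p = 0.0653) and with only the groups compared (adjusted p = 0.0743). Cxcr4 passed without E7.25 male replicate 2 (2.58, adjusted p = 0.0251).

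The ligands of both receptors were read in the same libraries. Kitlg was 3.42, 4.89 and 2.76 RPKM at E7.25 and 1.81, 1.26 and 0.408 RPKM at E7.75. At E9.5 it was 67.6 and 37.6 RPKM, a 45.4-fold rise (4.63 ± 0.44, adjusted p = 4.54e-06, limma), in the libraries with the highest mesodermal RNA. It was 15.2 to 34.9 RPKM from E10.5 to E12.5, where the mesenchyme list summed to 0.380 to 9.16 RPKM. The allantois and extraembryonic mesoderm list summed to 232 and 237 RPKM at E10.5, 181 and 189 RPKM at E11.5, and 136 and 161 RPKM at E12.5. The part of such RNA in the Kitlg values was not tested. At E15.5 Kitlg was 2.73 and 0.821 RPKM in males, 17.1-fold below E12.5 (-3.58 ± 0.48, adjusted p = 0.000401), and 16.1 and 6.08 RPKM in females. The fall in males ended as a call when only the 4 libraries compared were fitted. Kit RPKM exceeded Kitlg RPKM in every PGC library, though barely in E9.5 replicate 1. At E7.25 the ranges of the pair overlapped.

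Cxcl12 took a different course from its receptor. It was 4.65 to 13.4 RPKM in epiblast and 39.8 and 32.0 RPKM at E9.5, a 3.85-fold rise from E7.75 (1.91 ± 0.40, adjusted p = 0.00245, limma). It was 15.2 and 13.6 RPKM at E10.5, 6.53 and 4.14 RPKM at E11.5 and 3.84 and 4.90 RPKM at E12.5. The fall from E9.5 to E12.5 was 8.21-fold (-2.78 ± 0.43, adjusted p = 0.000373), while Cxcr4 was 31.3 and 35.0 RPKM on those days. At E15.5 Cxcl12 was 0.941 to 3.83 RPKM in the 4 libraries. Between all PGC and all epiblast it differed by -0.23 (adjusted p = 0.378), and without the E9.5 libraries it fell by 0.69 (adjusted p = 0.0204). The rise to E9.5 ended as a call with only the groups compared. Ackr3, a scavenging receptor that removes Cxcl12, was listed at 0 in every epiblast and E10.5 library, was 2.30 and 5.29 RPKM at E9.5 and at most 1.81 RPKM elsewhere. The E10.5 libraries were among the 4 shallow ones.

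**Figure D4:**
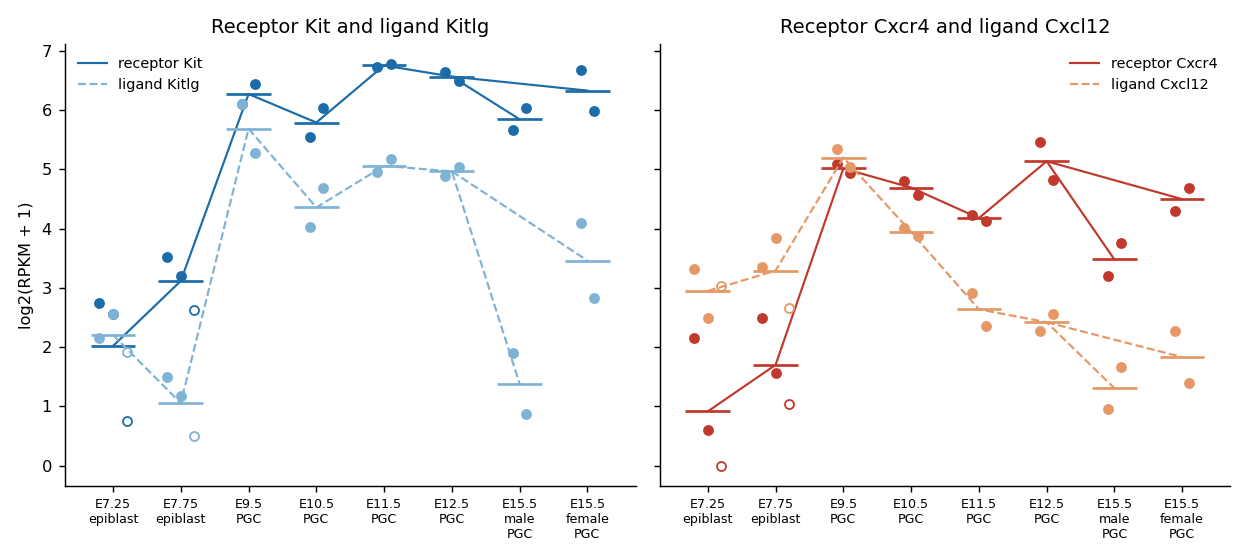
log2(RPKM + 1) of Kit with Kitlg (left) and of Cxcr4 with Cxcl12 (right) by group, with points for libraries (open points are female epiblast), bars at group means, and lines joining the means, with both E15.5 sexes joined to E12.5. Kitlg and Cxcl12 peak at E9.5 with Kit and Cxcr4 high, and Cxcl12 declines to 4.37 RPKM at E12.5 while Cxcr4 is at 35.0 RPKM. The E9.5 libraries also had the highest sums of the mesodermal lists.

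The Kit signalling list holds genes that carry the signal inside the cell, and the ligand Kitlg. Its lines were called about as often as all tested genes between PGC and epiblast, where 32.1% were higher and 26.4% lower. Of its 44 lines, all tested, 15 were higher, 13 lower and 16 not called between PGC and epiblast. The median difference was 0.14 against 0.09 over all tested genes. Grb2 counts by each of its lines, and Mcl1 has no line. Ptpn6, a phosphatase that damps Kit signalling, rose 10.4-fold, from 6.64 ± 3.57 to 69.3 ± 38.0 RPKM, and Pik3cb, a catalytic subunit of PI3-kinase, rose 7.09-fold. Mapk3, the kinase ERK1, fell 2.51-fold, from 73.7 ± 5.55 to 29.4 ± 11.7 RPKM, and the adaptor Shc1 fell 2.29-fold (adjusted p = 6.28e-08 and 7.35e-07, limma). At the step to E9.5 12 of the 44 were higher and 4 lower, beside 16.3% and 11.3% of all tested genes, and Ptpn6 rose 6.10-fold. From E9.5 to E10.5 3 were higher and 9 lower, beside 11.5% and 18.4% of all tested genes: Socs1, a feedback inhibitor of cytokine signalling, rose 2.24-fold to 145 ± 10.8 RPKM, and Ptpn11, the phosphatase SHP2, fell 3.53-fold to 3.41 ± 1.74 RPKM. Stat5a, a transcription factor, fell from 6.62 ± 0.213 RPKM to a listed 0 in both E10.5 libraries; these were among the 4 shallow libraries.

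At E11.5 1 gene of the Kit list was higher and 0 lower, beside 3.59% and 3.61% of all tested genes, and at E12.5 2 were higher and 1 lower, beside 4.12% and 3.09%. Map2k1, the kinase MEK1, rose 1.65-fold at E12.5 (0.72 ± 0.12, adjusted p = 0.00407, limma). Gab1, a docking protein for growth factor receptors, was 8.07-fold higher at E12.5 than at E9.5, at 75.2 ± 2.93 against 9.32 ± 8.73 RPKM. At E15.5 0 were higher and 5 lower in males, beside 3.58% and 5.15% of all tested genes, and 2 were higher and 6 lower in females, beside 8.60% and 9.84%, each against E12.5. Dusp6, an ERK phosphatase whose level is known to follow ERK activity, fell 5.13-fold in E15.5 females (adjusted p = 2.47e-05) and was 2.57-fold lower there than in males. Bax, which promotes cell death, was 2.204-fold lower in females than in males, at 112 ± 23.0 against 247 ± 2.28 RPKM (adjusted p = 0.000223). The calls of Ptpn6 at E9.5, Socs1, Ptpn11, Stat5a, Map2k1, Gab1, and Dusp6 and Bax between the sexes ended when only the groups compared were fitted.

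The Cxcr4 signalling list also holds genes that are not downstream of Cxcr4, namely Cxcl12, Ackr3, Dpp4 and Mmp2. Its lines were called about as often as all tested genes between PGC and epiblast (32.1% higher, 26.4% lower). Its 37 symbols include alternative names of the same gene, and Gng5 counts by each of its lines. Of its lines 31 were tested, and 10 were higher, 9 lower and 12 not called between PGC and epiblast. The median was -0.06 against 0.09 over all tested genes. Rhoa, a GTPase of cell contraction, rose 1.91-fold to 199 ± 18.4 RPKM, and the G protein subunit Gnb1 rose 1.65-fold to 149 ± 25.4 RPKM. At the step to E9.5, where Cxcr4 rose, 10 were higher and 1 lower, beside 16.3% and 11.3% of all tested genes, and Mmp2, a matrix protease that cleaves Cxcl12, rose 5.34-fold to 58.3 ± 0.641 RPKM. From E9.5 to E10.5 3 were higher, both Gng5 lines among them, and 11 lower, beside 11.5% and 18.4% of all tested genes. The median was -0.46 against -0.16 over all tested genes, and Mmp2 fell 73.2-fold to 0.797 ± 1.13 RPKM (adjusted p = 1.44e-05, limma). Mmp2 is also a gene of mesenchyme, and the mesenchyme list summed to 1.21 and 5.71 RPKM at E10.5. Arrb2, an arrestin that uncouples such receptors, was 3.38-fold higher at E12.5 than at E9.5 (adjusted p = 0.000589), and Gnai2, the inhibitory G protein subunit through which Cxcr4 acts, was 1.63-fold lower in E15.5 females than at E12.5. The Mmp2 rise ended with a pseudocount of 0.1, and the calls of Mmp2 at E10.5, Arrb2 and Gnai2 ended with only the groups compared.

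Alpl was far above the other alkaline phosphatase genes of the table in every library. Alpi, Alppl2 and Akp3 were listed at 0 in every library but 1, E12.5 replicate 2, which held 0.133 RPKM of Alpi and 0.525 RPKM of Akp3. Alpp was 0.672 and 1.08 RPKM at E11.5, 0.938 and 1.03 RPKM at E12.5 and 0.0182 and 0.899 RPKM in E15.5 females, and was listed at 0 in the other 12 libraries. Among 45 genes of phosphate handling, vitamin B6 metabolism and GPI anchoring, 39 were tested, and 13 were higher, 5 lower and 21 not called between PGC and epiblast, beside 32.1% higher and 26.4% lower over all tested genes. The median was -0.02 against 0.09. Enpp3, a surface phosphodiesterase, rose from 0.391 ± 0.401 to 47.4 ± 36.6 RPKM (adjusted p = 2.56e-11, limma), and Pigl, an enzyme of GPI anchor synthesis, rose 3.20-fold. Pdxk, which phosphorylates vitamin B6, fell 4.54-fold to 7.60 ± 7.22 RPKM. Enpp3 already rose at the step to E9.5, to 24.2 ± 5.59 RPKM, unlike Alpl. It reached 104 ± 15.2 RPKM at E12.5 and fell to 14.0 ± 2.47 RPKM in E15.5 males and 12.2 ± 1.19 RPKM in E15.5 females, while Alpl was 185 and 173 RPKM there. The Enpp3 fall in males and its rise from E9.5 to E12.5 ended as calls with a pseudocount of 0.1.

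At the step to E10.5, where Alpl rose, 5 of the 39 were higher and 7 lower, shares near the 11.5% and 18.4% of all tested genes. Pigp, a subunit of the enzyme that starts the GPI anchor, rose 2.45-fold to 106 ± 21.3 RPKM (1.27 ± 0.20, adjusted p = 0.000327, limma). Pigw, which acylates the anchor, fell from 5.86 ± 2.97 to 0.0529 ± 0.0749 RPKM, and Acp5, an acid phosphatase, fell from 7.62 ± 1.499 RPKM to a listed 0 in both libraries. These 3 calls ended when only the 4 libraries compared were fitted. The E10.5 libraries were among the 4 shallow ones, and the E9.5 libraries had the highest sums of the mesodermal lists. The part of either in these changes was not tested. At the steps to E11.5 and E12.5 at most 1 of the 39 was called in either direction. Of all tested genes 3.59% were higher and 3.61% lower at E11.5, and 4.12% and 3.09% at E12.5. At E15.5 3 were lower in males and 3 in females against E12.5, with 0 higher. Over all tested genes 3.58% were higher and 5.15% lower in males, and 8.60% and 9.84% in females.

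Of 31 other surface genes known from germ cells 28 were tested, and 13 were higher, 9 lower and 6 not called between PGC and epiblast, beside 32.1% higher and 26.4% lower over all tested genes. Tspan8, a tetraspanin, rose from 2.40 ± 1.85 to 281 ± 120 RPKM and Ifitm3, an interferon-induced membrane protein also called fragilis, from 0.972 ± 0.681 to 113 ± 110 RPKM. Itga6, an integrin that binds laminin, fell 11.1-fold and Cdh1, the adhesion protein E-cadherin, fell 4.54-fold to 41.1 ± 11.2 RPKM. All 4 also passed at the step to E9.5, where 15 were higher and 4 lower, beside 16.3% and 11.3% of all tested genes, with a median of 0.91 against 0.04. From E9.5 to E10.5 5 rose and 12 fell, beside 11.5% and 18.4% of all tested genes. The mesenchyme list moved the same way, with sums of 166 and 172 RPKM at E9.5 and 1.21 and 5.71 RPKM at E10.5, as did the allantois and extraembryonic mesoderm list, from 496 and 521 to 232 and 237 RPKM, and their part in these counts was not tested. Ifitm1 rose 9.14-fold to 884 ± 151 RPKM and Ifitm3 8.67-fold to 334 ± 21.1 RPKM, whereas the integrin subunit Itgav fell from 5.43 ± 0.145 to 0.0235 ± 0.0332 RPKM. These calls at E10.5 ended with only the groups compared. The low Itgav values at E10.5 came from libraries among the 4 shallow ones.

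Between the E15.5 sexes 3 of the 28 surface genes were higher and 2 lower in females, beside 4.33% and 5.35% of all tested genes. Cd24, a GPI-anchored protein like Alpl, was 38.7 ± 4.45 RPKM in females and 2.67 ± 1.71 RPKM in males, 14.5-fold apart (3.51 ± 0.33, adjusted p = 1.83e-05, limma). Pdpn, the mucin-like podoplanin, fell 5.57-fold from E12.5 to E15.5 in males, to 28.7 ± 3.76 RPKM. Cd81, a tetraspanin, rose 2.97-fold in females to 94.9 ± 11.9 RPKM, and Ifitm1 fell 4.71-fold there to 83.9 ± 20.9 RPKM. Against E12.5, 2 of the 28 were higher and 8 lower in males (3.58% and 5.15% of all tested genes), and 5 were higher and 7 lower in females (8.60% and 9.84%). The Cd24 call ended when only the 4 libraries compared were fitted.

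The closest relatives of Kit and Cxcr4 were mostly silent. Of the 4 other class III receptor tyrosine kinases, Csf1r and Flt3 did not pass the filter. Pdgfra was listed at 0 in epiblast, was 6.15 ± 4.61 RPKM at E9.5 and 0.0818 ± 0.116 RPKM at E10.5. Pdgfrb went from a listed 0 in epiblast to 4.21 ± 2.81 RPKM at E9.5 and a listed 0 at E10.5. Both changed at both steps (adjusted p = 0.000201 and 0.000880 to E9.5, 0.000596 and 0.00170 to E10.5, limma), the latter pair not with only the groups compared. Both are receptors of mesenchyme, whose list had its highest sums at E9.5. Their low values at E10.5 came from libraries among the 4 shallow ones. Of 12 other chemokine receptors 9 did not pass the filter, and Ccr7, Cxcr5 and Cxcr6 had means of at most 0.872 RPKM over PGC.

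The genes most like each of the 3 in their course over the 10 group means were found by Pearson correlation of log2(RPKM + 1) among 11249 genes. The points share the depth of their day, and they fall into epiblast and PGC, so r is given as a description. Kit was most like Exoc2, a subunit of the exocyst (r = 0.98), followed by Smarcd3, Plekha5, Plcb3 and Nkiras1. Cxcr4 was most like Trim21 (r = 0.98) and Kit (r = 0.97), then Nptn, Irf1 and Ogdh. Alpl was most like Sin3b, a corepressor scaffold (r = 0.98), then Prss48, Fbxw2, Pmpcb and Thnsl1. Sin3b was 160 RPKM at E9.5 against a mean of 513 RPKM over all PGC. Since Sin3b was picked by r over means that include E9.5, its low value there is part of the choice. Between the members r was 0.97 for Kit with Cxcr4, 0.86 for Kit with Alpl and 0.78 for Cxcr4 with Alpl. With a pseudocount of 0.1 or 5, Sin3b kept rank 1 for Alpl, Kit was at rank 2 or 29 for Cxcr4, and Nptn moved from rank 3 for Cxcr4 to rank 148 or 1.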

How the data were processed

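The deposited table held RPKM values per gene and library, made by the authors; per the submitters' processing notes the tools were bcl2fastq 2.18.0.12, cutadapt 1.14, TopHat2 2.1.0 and Cufflinks 2.2.1, with build rn6. RNA was extracted with PicoPure and amplified with SMART-Seq v4 Ultra Low Input, per the labels' protocols. Not given in the sources used here are the annotation, strand use and how multi-mapped reads were treated, so lines that share a symbol or overlap are uncertain. Read totals are not used here, and relative depth came from the steps between low RPKM values.

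Values were tested as log2(RPKM + 1) with limma 3.58.1 in R 4.3.3 (mean-variance trend, two-sided, Benjamini-Hochberg adjustment over all genes, threshold 0.05). Genes with at least 1 RPKM in at least 2 libraries entered, 14865 in all. The fit had 8 groups (10 residual degrees of freedom), or 10 groups (8 degrees of freedom) for the sexes of epiblast and the interaction. Each gene has 1 spread for all its libraries. In the fit of 10 groups the female epiblast libraries, 1 per day, add nothing to that spread. The code was tested on simulated data. Alternatives were other pseudocounts, filters, scalings, fits and libraries left out in turn.

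The 3 genes and the gene lists were chosen with earlier results of these data known. From each list, the genes named were up to 2 rises and 2 falls per comparison, the largest among those that passed, reached 5 RPKM on average in one group and did not overlap; calls that ended when 1 library was left out are given in the counts only. A result that the rule would name is not reported here. Lists leave out the gene they are built around. Promoters came from RefSeq on build GRCr8, matched by symbol for 3 of 3 genes, and only the 250 bases before the start are printed. Figures used matplotlib 3.10.9.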

Additional observations from a re-analysis of the deposited data

Results flagged for a closer look

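The sex difference of Kit was not the same in epiblast and in E15.5 PGC by the test of the difference itself, with a limit. Female epiblast had 1 library per day, so the p-values of this test measure no spread among female epiblast libraries. Kit was lower in female than in male epiblast (2.91 ± 3.16 and 7.33 ± 2.53 RPKM, SD, n = 2 and 4) and higher on average in female than in male PGC at E15.5 (81.5 ± 26.9 and 56.9 ± 10.6 RPKM, n = 2 each). The 2 differences were 1.81 apart on the log2 scale (adjusted p = 0.0157, limma). Neither sex difference passed on its own, and the call ended without E7.25 female replicate 1 (1.23, adjusted p = 0.193), the library with 0.677 RPKM of Kit, without E15.5 male replicate 1 (1.62, adjusted p = 0.0786) and without E15.5 female replicate 1 (1.47, adjusted p = 0.0540).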

How the results depend on the processing

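No called difference of Kit, Cxcr4 or Alpl changed sign under any alternative run; 6 uncalled ones of Alpl, Kit or Cxcr4 and the Alpl interaction did when 1 library was left out. With only the groups compared, the Alpl rise to E10.5 (2.35) had an adjusted p of 0.0609 and the Kit interaction (1.81) one of 0.0743. The Kit interaction was 1.136 with a pseudocount of 5 and 1.23 to 2.39 with 1 library left out; leaving out an epiblast female removes its day from that comparison. The Cxcr4 interaction was 1.81 to 2.58 with 1 library left out. Cxcr4 in E15.5 males against E12.5 was -1.37 with a pseudocount of 5, -1.66 with array weights and -1.98 to -1.34 with 1 library left out. Kit in female against male epiblast was -1.82 with a pseudocount of 0.1, -1.33 with no filter or with array weights, and -1.91 to -0.74 with 1 library left out. The F of Cxcr4 among PGC groups was 6.06 with a pseudocount of 5, 9.83 with only PGC and 1.17 to 4.28 with 1 library left out.

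Replicate numbers did not pair the libraries: over 28 pairs of groups the deviations of same-numbered libraries had r of -0.13 to 0.06 across genes. With a replicate block the Kit rise to E9.5 was 3.12 and the Alpl rise to E10.5 was 2.35, and no call of the 3 genes changed; genes called between epiblast sexes went from 9 to 5. With only the groups compared, counts of called genes went from 40 to 9 (E7.75 against E7.25), 4108 to 2204 (E9.5), 1069 to 56 (E11.5), 3449 to 1093 (E12.5 against E9.5), 1297 to 333 (E15.5 males), 2741 to 1006 (E15.5 females) and 9 to 150 (epiblast sexes). They went to 0 in limma from 4443 (E10.5), 1072 (E12.5) and 1439 (E15.5 sexes), with 3544, 3707 and 3183 genes at an unadjusted p under 0.05. Array weights gave 146 at E7.75, 2228 at E10.5, 502 at E11.5, 1999 at E12.5 and 2188 in E15.5 males, and 668 against 433 for the interaction. No filter gave 220 for the epiblast sexes and 768 for the interaction; a pseudocount of 0.1 gave 16 and a filter of 5 RPKM gave 5 for the epiblast sexes. With 1 library left out the lowest counts were 16 (without the E7.25 female), 353 (without E11.5 replicate 2), 251, 2108, 525 and 1475 (each without E12.5 replicate 2), 672 (without E15.5 male replicate 1), and 4 and 163 (without the E7.25 female), for E7.75, E11.5, E12.5, E12.5 against E9.5, E15.5 males, E15.5 females, E15.5 sexes, epiblast sexes and the interaction. Of the calls at the step to E9.5 59% were rises, 50.9% with median-ratio scaling and 48.3% with quantile normalization; at E10.5 these were 38.5%, 44.9% and 51.7%. Of 116 called gene comparisons on the lists and ligands 34 kept their call in all settings run and 0 reversed. Groups of 2 limit the precision, and the effect of depth on the calls was not tested.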
